A study of Mus musculus with 2 samples.

Results

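The miR-193 and miR-365 family is a set of related mouse miRNAs made from neighbouring hairpins. It was followed here in exosomes, the small vesicles that cells release, shed by BMSCs, the mesenchymal stem cells that can be grown from mouse bone marrow. The family was taken as the 5 mature miRNAs mmu-miR-193a-3p, mmu-miR-193a-5p, mmu-miR-193b-3p, mmu-miR-193b-5p and mmu-miR-365-3p, found by name among the 1881 mouse miRNAs of the array. Exosomes came from the medium of BMSCs kept in normoxia or at 0.2% oxygen for 72 h. Both groups were purchased BMSCs of C57BL/6 mice in the same medium, and the labels name no genetic change or drug. The labels give fetal calf serum in that medium, whereas the study's methods describe serum depleted of exosomes. Exosomal RNA carrying the dye Cy3 was read on Agilent arrays of mouse miRNAs, with 1 dye per array. The series holds 1 array per condition, and the submitters state that the experiment was not repeated. No test between the conditions was therefore possible and no p-value is given. Every SD and SE below is over replicate spots of a probe inside an array, which covers printing, hybridisation and scanning but not cultures, exosome isolations or labellings.

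A miRNA is cut from a hairpin precursor, and either arm of the hairpin, 5p or 3p, can be loaded into the silencing complex. Bases 2 to 8 of the mature strand, the seed, pair with target mRNAs. In mammals the family lies in a pair of clusters, each holding a miR-193 hairpin followed by a miR-365 hairpin. miR-193b and miR-365 are known from brown fat cell differentiation. miR-193a-3p is known as a repressor of the receptor KIT and the survival protein MCL1 in tumour cells, miR-193b-3p as a repressor of cyclin D1, and miR-365-3p as a repressor of the histone deacetylase HDAC4 in cartilage cells.

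The mature sequences are shown because members that share a cluster gave unequal differences between the arrays. Those that share a seed differed on the mean over their probes, but not beyond spot error for every pair of probes. The sequences are from RefSeq on the GRCm38.p6 assembly, written 5′ to 3′ with the seed in capitals, and all lie on the plus strand.
mmu-miR-193a-3p, chr11:79712009-79712030: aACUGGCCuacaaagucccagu
mmu-miR-193b-3p, chr16:13449570-13449591: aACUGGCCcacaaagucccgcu
mmu-miR-365-3p, chr11:79726467-79726488 and chr16:13453895-13453916: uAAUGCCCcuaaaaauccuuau
mmu-miR-193a-5p, chr11:79711975-79711996: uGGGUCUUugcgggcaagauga
mmu-miR-193b-5p, chr16:13449533-13449554: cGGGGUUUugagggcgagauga

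miR-193a-3p and miR-193b-3p carry the same seed. Of the 1608 array miRNAs that matched a RefSeq mature sequence, no other miRNA shares it, and no other miRNA shares the seed of a remaining member. Both are 22 bases long and identical at 19 positions. Counted from 1 at the 5′ end of miR-193a-3p, they differ by U9C, A20G and G21C, all outside the seed. The 5p arms of the same hairpins differ more, with 17 of 22 positions identical. Their differences are U1C, U5G, C6U, C11A and A16G, of which U5G and C6U fall in the seed. miR-365-3p has a seed of its own, AAUGCCC.

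Mir193a (chr11:79711969-79712034) and Mir365-2 (chr11:79726400-79726511) lie on the same strand with 14365 bases between them. Mir193b (chr16:13449523-13449601) and Mir365-1 (chr16:13453840-13453926) are closer, with 4238 bases between them. The RefSeq table places no other gene between the hairpins of either cluster. Mir193b and Mir365-1 overlap the long noncoding RNA models Gm32817 and Gm53058, while Mir193a and Mir365-2 overlap no other gene. Both Mir365 hairpins give the same mature miR-365-3p, so the arrays cannot tell which cluster its signal came from. The whole hairpins of Mir193a and Mir193b are shown because the 3p arm of each was detected on both arrays, whereas the 5p arm was detected in normoxia only for Mir193a and on neither array for Mir193b. Capitals mark the 5p arm and then the 3p arm.
Mir193a: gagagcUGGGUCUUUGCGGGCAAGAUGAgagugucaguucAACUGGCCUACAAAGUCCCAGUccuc
Mir193b: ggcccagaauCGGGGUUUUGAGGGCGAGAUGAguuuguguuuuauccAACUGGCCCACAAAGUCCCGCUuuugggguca

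The members were printed as 12 probes on 150 spots of each array. Outlier flags removed 3 of those spots in normoxia and 5 in hypoxia. Detection of a probe required that over 50% of its remaining spots be well above background. miR-193a-3p, miR-193b-3p and miR-365-3p were detected on both arrays, miR-193a-5p in normoxia only and miR-193b-5p on neither. Detection on both arrays thus held for 3 of 5 members, beside 180 of all 1881 miRNAs, or 9.57%.

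miR-193a-3p was higher in hypoxic exosomes on each of its probes. Its brighter probe, A_54_P2375, had a mean signal in normoxia of 973 ± 111 (SD, n = 15 spots). In hypoxia it averaged 1960 ± 367 (SD, n = 15 spots). Signal here is the processed intensity of a spot after background subtraction, on a linear scale and not scaled between arrays. The normoxia spots ran from 729 through a median of 1022 to 1082, and the hypoxia spots from 1194 through 1992 to 2423. Every hypoxia spot lay above every normoxia spot. Its dimmer probe, A_54_P2374, gave 118 ± 9.88 (SD, n = 13 spots) in normoxia, with spots from 97.7 through 119 to 134. In hypoxia it gave 295 ± 56.8 (SD, n = 14 spots), with spots from 203 through 314 to 379. The unflagged spots of the dimmer probe did not overlap between the arrays either. A flagged hypoxia spot of this probe, which was dropped, read 34.6, below every normoxia spot. In such bulk RNA, a change in the number of vesicles and one in the RNA per vesicle cannot be told apart. Without any scaling the hypoxia signal was 2.01 times the normoxia signal on the brighter probe and 2.49 times on the dimmer one.

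After quantile normalization between the arrays, the log2 difference of miR-193a-3p, hypoxia minus normoxia, was 1.52 ± 0.058 (SE over spots), or 2.86-fold. The brighter probe gave 1.36 ± 0.082 and the dimmer probe 1.68 ± 0.081. Odd-numbered spots alone gave 1.51 and even-numbered spots 1.54. Across 6 scalings of the arrays, including none, the difference lay between 1.16 and 2.09, so it was at least 2-fold in each. The study listed miR-193a-3p as increased from these same arrays, so its direction here is not independent evidence of it. The study also reported a similar pattern in plasma exosomes of mice, and an increase in hypoxic BMSC exosomes by quantitative PCR. Neither was examined here.

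miR-193b-3p, with the same seed, was also higher in hypoxic exosomes, but its probes gave unequal sizes. The dimmer probe, A_54_P3060, had a mean signal in normoxia of 57.5 ± 6.43 (SD, n = 15 spots), with spots from 47.4 through 57.4 to 68.2. In hypoxia it had 101 ± 14.3 (SD, n = 13 spots), with spots from 79.3 through 102 to 126. The unflagged spots of this probe did not overlap between the arrays. The flagged hypoxia spots of this probe, which were dropped, lay below every normoxia spot. The brighter probe, A_54_P3061, gave 218 ± 20.5 (SD, n = 15 spots) in normoxia, with spots from 189 through 221 to 251. In hypoxia it gave 247 ± 29.4 (SD, n = 15 spots), with spots from 182 through 248 to 297. On this probe the spots of the arrays overlapped. Unscaled, the hypoxia signal was 1.76 times the normoxia signal on the dimmer probe and 1.13 times on the brighter one.

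The log2 difference of miR-193b-3p was 0.87 ± 0.045 (SE over spots) after quantile normalization, or 1.82-fold. The dimmer probe gave 1.28 ± 0.070 and the brighter probe 0.45 ± 0.057. The gap between them was 0.82, whereas the probes of a miRNA differed by a median of 0.15 over the 115 miRNAs that had several probes detected on both arrays. Only 1.74% of these miRNAs had a larger gap. Probe sequences were not used here, so how far the probes of miR-193b-3p also read miR-193a-3p, which differs from it at 3 positions, was not tested. The gap was 0.32 for miR-193a-3p and 0.019 for miR-365-3p. The size of the miR-193b-3p difference therefore varied with the probe and with the scaling, with a range of 0.50 to 1.42 over the 6 scalings, and it was above 0 in each of them.

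miR-365-3p, the partner in both clusters with another seed, did not share the higher place of the miR-193 members and lay below the median of all miRNAs. Probe A_54_P4391 had a mean signal in normoxia of 85.4 ± 16.0 (SD, n = 15 spots), with spots from 46.9 through 87.8 to 107. In hypoxia it had 52.7 ± 9.93 (SD, n = 15 spots), with spots from 35.5 through 52.0 to 72.7. Probe A_54_P4390 gave 54.8 ± 6.88 (SD, n = 15 spots) in normoxia, with spots from 43.6 through 51.4 to 65.9. In hypoxia it gave 34.6 ± 9.21 (SD, n = 15 spots), with spots from 16.7 through 37.6 to 45.4. On both probes the hypoxia spots were mostly the lower ones and the ranges overlapped. Unscaled, the hypoxia signal was 0.617 and 0.631 times the normoxia signal.

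The log2 difference of miR-365-3p after quantile normalization was −0.16 ± 0.074 (SE over spots), or 1.12-fold lower in hypoxia, and it turned to 0.25 when the 75th percentile over all probes set the scale. Its direction is thus not settled by these arrays. Relative to the median of all 180 miRNAs, which is unaffected by a common scaling factor, it was −0.33 with quantile normalization and −0.41 under each scaling by a single factor. On the same relative scale miR-193a-3p stood at 1.35 and 1.43, and miR-193b-3p at 0.70 and 0.77.

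**Figure D1:**
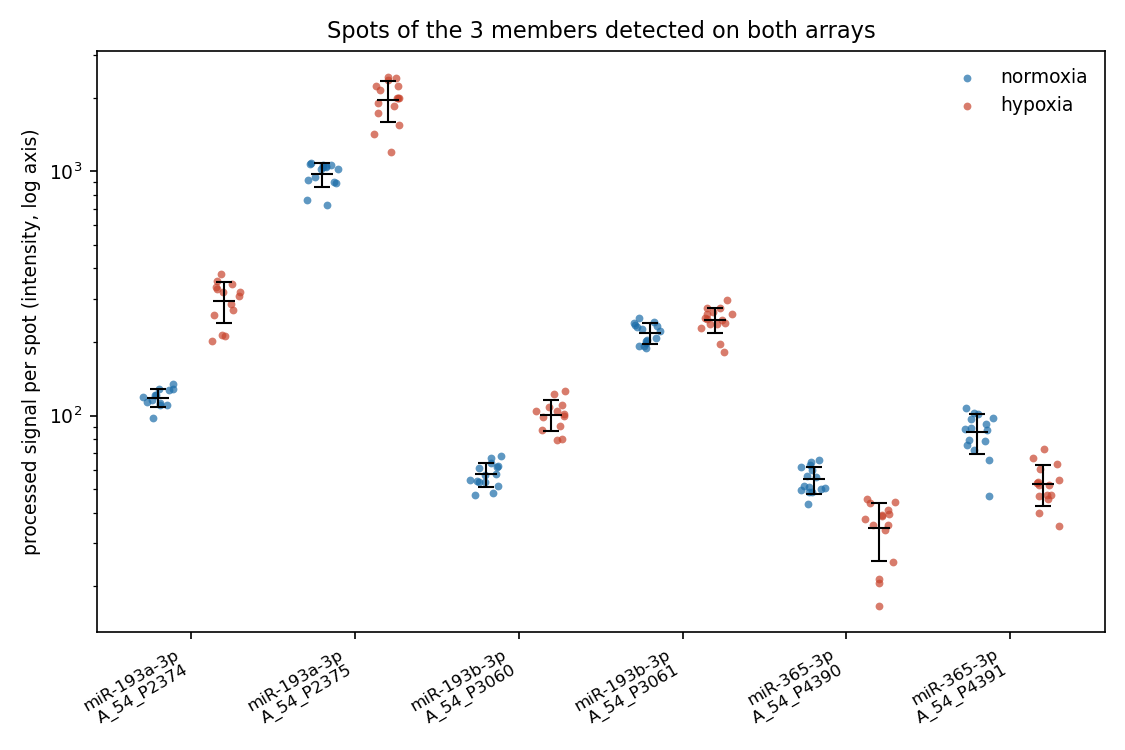
Processed signal of each unflagged spot (vertical, intensity on a log axis, not scaled between arrays) for the probes of miR-193a-3p, miR-193b-3p and miR-365-3p in normoxia (blue) and hypoxia (red), with bars at the mean ± SD over spots. The unflagged spots of both miR-193a-3p probes and of the dimmer miR-193b-3p probe do not overlap between the arrays, while those of the brighter miR-193b-3p probe and of both miR-365-3p probes do.

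The contrast between members was then measured directly, because a difference of log2 differences between miRNAs of the same arrays cancels any common scaling factor. miR-193a-3p exceeded miR-193b-3p by 0.65 ± 0.073 (SE over spots), or 1.57-fold. miR-193a-3p exceeded miR-365-3p, its partner on chromosome 11, by 1.68 ± 0.094, or 3.20-fold. miR-193b-3p exceeded miR-365-3p, its partner on chromosome 16, by 1.03 ± 0.087, or 2.04-fold. With any single scaling factor in place of quantile normalization these contrasts were 0.67, 1.84 and 1.18. The contrast between miR-193a-3p and miR-193b-3p depended on the probes compared. It was 1.22 ± 0.099 for the dimmer miR-193a-3p probe over the brighter miR-193b-3p probe, but 0.08 ± 0.11 (SE over spots) for the brighter miR-193a-3p probe over the dimmer miR-193b-3p probe, which is within the spot error. Over all pairs of probes, miR-193a-3p exceeded miR-365-3p by 1.51 to 1.85 and miR-193b-3p exceeded miR-365-3p by 0.61 to 1.45. None of these contrasts could be set against a spread between cultures.

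**Figure D2:**
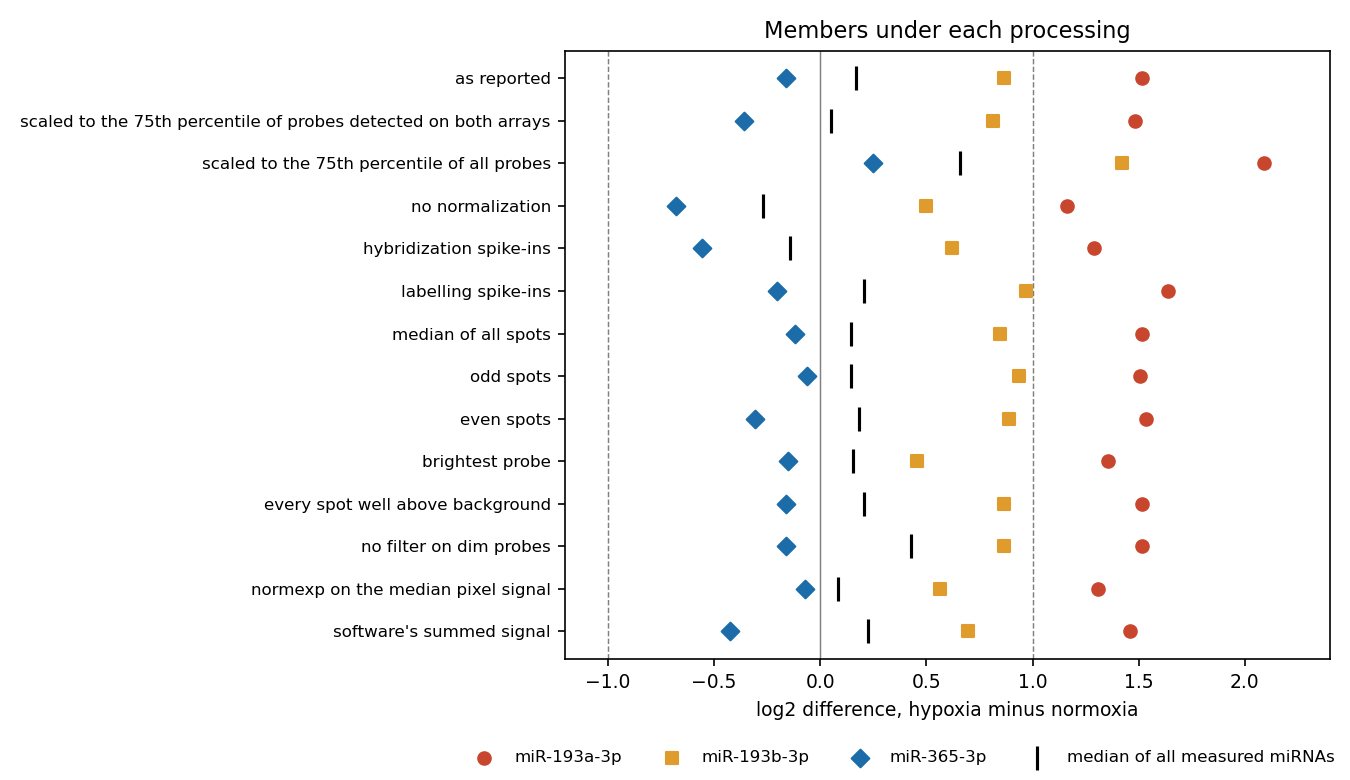
Log2 difference, hypoxia minus normoxia (horizontal), of the 3 members detected on both arrays under the reported processing and each alternative (vertical), with a black tick at the median of all measured miRNAs and grey lines at 0 and at 2-fold. In each processing shown miR-193a-3p and miR-193b-3p lie above the median and miR-365-3p lies below it, an order that a single scaling factor cannot alter, and miR-365-3p lies above 0 only where the 75th percentile over all probes set the scale.

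The 5p arms were at or near background. miR-193a-5p, whose mature strand faces miR-193a-3p in the hairpin, was read by 4 probes. Its brightest probe, A_54_P3348, gave 17.4 ± 2.12 (SD, n = 7 spots) in normoxia, with spots from 15.9 through 16.8 to 22.1, and all 7 were well above background. In hypoxia it gave 12.0 ± 3.49 (SD, n = 7 spots), with spots from 7.80 through 12.0 to 17.1, and 2 of 7 were well above background. The ranges overlapped. The lowest signal of any detected probe was 14.5 in normoxia and 13.5 in hypoxia. The probe's quantile-normalized signal in normoxia was 14.6, below the lowest detected signal of 16.1 in hypoxia, so no fold is given for miR-193a-5p.

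Probe A_54_P3347 of miR-193a-5p gave 8.31 ± 2.81 (SD, n = 7 spots) in normoxia, against 5.43 ± 2.78 (SD, n = 6 spots) in hypoxia, with no spot well above background. The other probes of miR-193a-5p had means from −4.06 to −1.94, where a value below 0 means a spot dimmer than its background. miR-193b-5p was not well above background in either condition. Its probes gave 1.17 ± 3.98 and 2.56 ± 3.23 (SD over spots) in normoxia, and −0.27 ± 3.83 and 1.86 ± 4.75 in hypoxia. miR-365-1-5p and miR-365-2-5p, the 5p arms of the Mir365 hairpins, were detected on neither array. Of the 10 probes for 5p arms of the 4 hairpins, 1 was detected on an array, and among the spots of the other 9 none was well above background in normoxia and 1 was in hypoxia.

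**Figure D3:**
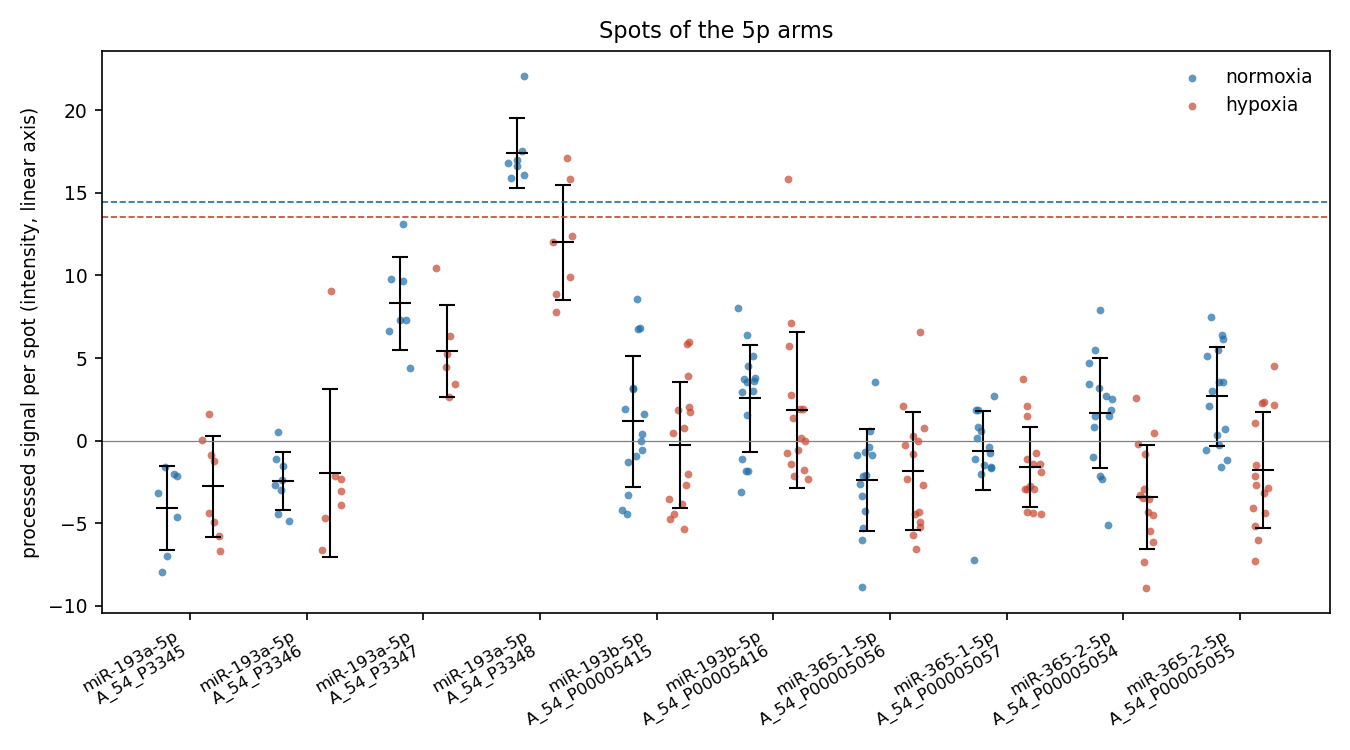
Processed signal of each unflagged spot (vertical, intensity on a linear axis) for the probes of the 5p arms in normoxia (blue) and hypoxia (red), with bars at the mean ± SD over spots and dashed lines at the lowest signal of a detected probe on each array, 14.5 in normoxia and 13.5 in hypoxia. Only the normoxia mean of A_54_P3348, a miR-193a-5p probe, lies above its dashed line.

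Among the 180 miRNAs detected on both arrays, the members stood at different places. miR-193a-3p had the log2 difference of rank 20 from the highest, with neighbours at 1.57 and 1.50. miR-193b-3p had rank 36 and miR-365-3p rank 117. The rank of miR-193b-3p rests on the mean of unequal probes, at 1.28 and 0.45, on either side of 2-fold. Of the 3 members measured on both arrays, 1 was at least 2-fold higher in hypoxia, beside 33 of 180 miRNAs, or 18.3%. None was at least 2-fold lower, beside 18 of 180, or 10.0%. The counts over so few members are given as a description. The median of the 3 was 0.87 and the median of all 180 was 0.17.

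**Figure D4:**
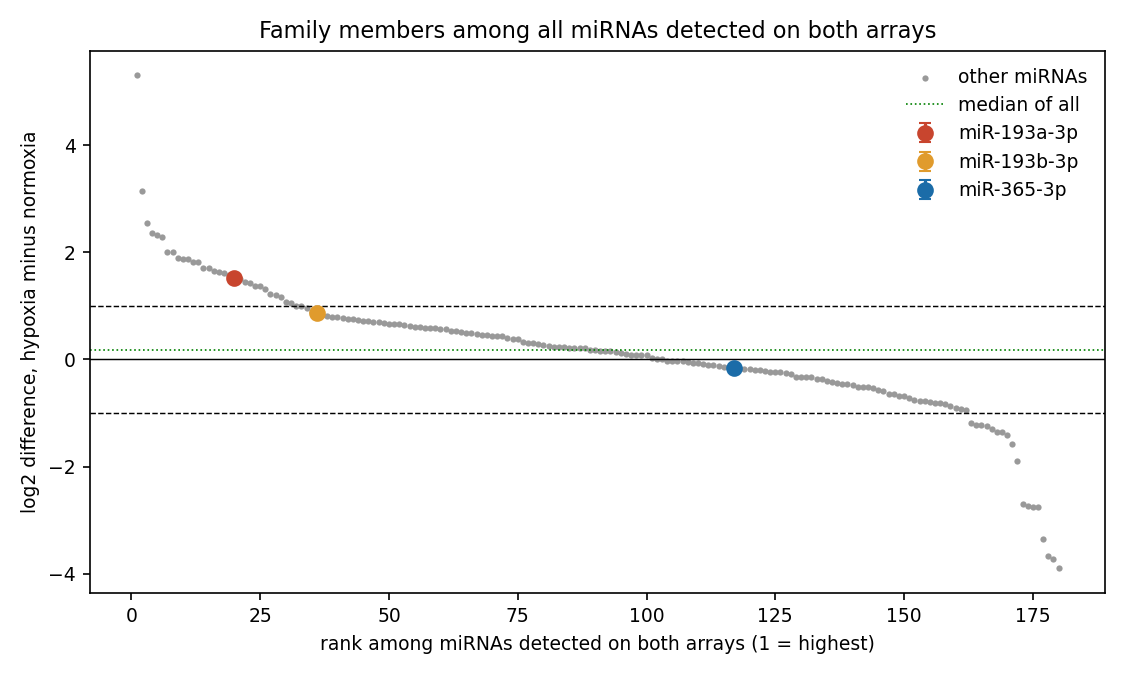
Log2 difference, hypoxia minus normoxia (vertical), of each of the 180 miRNAs detected on both arrays against its rank (horizontal), with dashed lines at 2-fold, a dotted line at the median of 0.17 and error bars of 1 SE over spots that are smaller than the symbols. miR-193a-3p lies at rank 20 above the upper 2-fold line, miR-193b-3p at rank 36 just under it and miR-365-3p at rank 117 below the median. The miR-193b-3p value is the mean of probes at 1.28 and 0.45, a gap that its error bar does not cover.

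The miRNAs whose pair of normalized log2 signals lay nearest to a member were listed over the 2 arrays by Euclidean distance. This is a likeness of signal and of difference over 2 points, and it says nothing of amounts, since probes differ in brightness. Nearest to miR-193a-3p was miR-3473b at a distance of 0.097, and its log2 difference was 1.44 ± 0.039 (SE over spots). The next were miR-1224-5p at 0.52 and miR-466i-5p at 0.90, with log2 differences of 0.83 and 0.50. Nearest to miR-193b-3p were miR-532-5p, miR-3960 and miR-214-3p, at distances of 0.25, 0.27 and 0.30, with log2 differences of 0.51, 0.56 and 1.20. Nearest to miR-365-3p were miR-218-5p, miR-7668-3p and miR-130b-3p, at distances of 0.18, 0.28 and 0.32. Their log2 differences were −0.07, −0.10 and −0.02, with an SE over spots of 0.052, 0.046 and 0.065.

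Sequence features that the choice of members did not use were also compared. The share of G and C was 50% in miR-193a-3p, 59.1% in miR-193b-3p and 31.8% in miR-365-3p, beside a median of 52.2% over the 1608 array miRNAs with a sequence. miR-365-3p, the member below the median difference, was thus also the one poorest in G and C, which with 3 members is no more than a description. GGAG, a motif known from miRNAs sorted into exosomes, was searched for in the mature strands as written. It occurred in none of the 5 members, in 14.4% of the 1608 and in 20.5% of the 161 of these detected on both arrays. CCCU, the other motif searched, occurred in miR-365-3p, where it spans the end of the seed, and in no other member. It occurred in 11.7% of the 1608 and in 8.70% of the 161.

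Because miR-193b and miR-365 are known from brown fat, 20 other miRNAs known from fat cell differentiation were read on the same arrays. Normoxic exosomes had 9 of them detected and hypoxic exosomes 10, with 9 detected on both. Of these 9, 8 had a log2 difference above 0 and 1 below, beside 102 of all 180 miRNAs above 0, and the median was 0.58 beside 0.17 for all 180. These signs depended on the scaling. Without normalization 4 of the 9 lay above 0, beside 63 of the 180, and with the 75th percentile over all probes as the scale 9 did, beside 137. At least 2-fold higher was 1 of 9, beside 33 of the 180, or 18.3%. At least 2-fold lower were 0 of 9, beside 18 of the 180, or 10.0%. The higher one was miR-378a-3p, which is encoded inside the gene of the coactivator PGC-1β, at 3.15 ± 0.083 (SE over spots). Only 1 of its 2 probes was detected on both arrays. Its brightest probe gave 17.3 in normoxia, near the lowest detected signal of 14.5 there. The next largest difference was that of miR-26a-5p at 0.61 ± 0.12, also from 1 of 2 probes. Unscaled, the brightest probe of miR-26a-5p was no higher in hypoxia, with 21.0 in normoxia and 20.3 in hypoxia. Both values are near the lowest detected signals, 14.5 in normoxia and 13.5 in hypoxia. The lowest were miR-106b-5p of the miR-17 family at −0.46 ± 0.041 and miR-130a-3p, a repressor of the fat cell regulator PPARγ, at 0.11 ± 0.040. miR-34a-5p was detected in hypoxia only, with a log2 difference of at least 1.12 after quantile normalization but of at least 0.40 without it. Over the scalings the median of all 180 miRNAs moved from −0.27 without normalization to 0.66 where the 75th percentile over all probes set the scale.

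The arrays differed in quality, and the samples were checked against markers of cell types. The coefficient of variation between replicate spots, as the software gives its median, was 9.68% in normoxia and 15.8% in hypoxia, and the software marked the hypoxia array for evaluation. The software's labelling spike-in signal, on a log10 scale, was 2.60 in normoxia, inside its accepted range, and 2.45 in hypoxia, outside that range. Hypoxia minus normoxia, the hybridization spike-ins differed by −0.12 and the labelling spike-ins by −0.47 on the unscaled log2 scale. Of 10 miRNAs typical of mesenchymal stromal cells, 9 were detected on both arrays, and miR-145a-5p was detected on neither. None of 6 epithelial markers was detected. Of 6 blood cell markers, 3 were detected in normoxia and 1 in hypoxia, and the sum of their brightest probes' signals went from 506 in normoxia to 37.1 in hypoxia, most of it from the red cell miRNA miR-451a. miR-122-5p, the liver marker, was detected in normoxia only, with 78.5 against 7.04. Of 3 muscle markers miR-206-3p was detected on both arrays. Its brightest probe gave 31.8 in normoxia and 22.0 in hypoxia unscaled, and its log2 difference was 0.16 after quantile normalization. The part of these differences, or of miRNAs from the serum of the medium, in the values of the family was not tested, and the place of an array on the slide and its condition cannot be told apart.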

How the data were processed

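RNA of BMSC exosomes was measured on 2 Agilent miRNA arrays, 1 for normoxia and 1 for hypoxia. Groups were taken from the sample titles. Images had been read by the authors in Feature Extraction 11.5.1.1, per the file headers, with local background and a spatial gradient removed at every spot. The authors deposited the resulting intensity on a linear scale, where values below 0 occur, and no step had brought the arrays to a common scale. The value table of the series holds the same intensity, spot for spot. The methods name Agilent's miRNA labelling kit, whereas the labels describe a reverse transcription of total RNA. The array design names the mm9 build; sequences and coordinates come from RefSeq tables of GRCm38.p6, which held a mature sequence for 1608 of 1881 array names.

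Spots carrying an outlier flag (4 kinds) were dropped, and the other spots of a probe were averaged. Probe means were quantile-normalized, as in the study, and log2 differences were averaged over those probes of a miRNA that both arrays detected. For a miRNA that 1 array alone detected, the comparison was with the lowest detected signal of the other array, or with the probe's own signal there if that was higher. The threshold of 2-fold is the study's. Python 3.11.15 with numpy 2.4.6 and pandas 2.3.3 was used, and limma 3.58.1 in R 4.3.3 for the normexp alternative with an offset of 50. The computation of differences was tested on simulated spots, without quantile normalization and without flagged spots. Precision is limited by the number of arrays.

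The members, the lists of fat cell and marker miRNAs and the alternatives were chosen with earlier results of these data known. The miRNAs to be named were the members, the other arms of their hairpins, array miRNAs sharing a seed, the 3 nearest patterns of each measured member and up to 4 fat cell miRNAs with the largest and smallest differences.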

Additional observations from a re-analysis of the deposited data

How the results depend on the processing

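The difference of miR-193a-3p stayed at least 2-fold in all alternatives run. The 3 contrasts between members, which cancel a single scaling factor, were also read over the alternatives. miR-193a-3p over miR-193b-3p ranged from 0.57 to 0.90, where 0.90 came from the brightest probe of each miRNA. miR-193a-3p over miR-365-3p ranged from 1.38 to 1.88. miR-193b-3p over miR-365-3p ranged from 0.61, again from the brightest probes, to 1.20. When the 75th percentile over all probes set the scale, log2 differences were 2.09 for miR-193a-3p, 1.42 for miR-193b-3p (also the median of the members) and 0.25 for miR-365-3p, which reversed, with 2 members at least 2-fold higher, and 58 miRNAs higher and 10 lower in all. Without normalization these were 1.16, 0.50 (also the median) and −0.68, with 20 higher and 36 lower. By construction these 2 differ from each other by the same amount for every miRNA. For miR-193b-3p the hybridization spike-ins gave 0.62, with 30 miRNAs lower in all, normexp gave 0.56, with 11 higher and 11 lower in all, and the brightest probe gave 0.45, which was then also the median of the members. With every spot of a probe required above background, 144 miRNAs were compared and 9 were lower. For miR-193a-5p, a scale set by the 75th percentile over probes that both arrays detected, the hybridization spike-ins or no normalization gave a log2 difference of at most −0.04, −0.24 or −0.36. With no filter on dim probes miR-193a-5p stood at 0.36 and miR-193b-5p at 0.43, which was also the median of the members and of all 1881 miRNAs, and which is only the ratio of the floors set on the arrays. The software's summed signal called miR-193a-5p on both arrays, with sums of 1.72 in normoxia and 1.19 in hypoxia, and made it the second member at least 2-fold higher, at 1.32 after quantile normalization but −0.54 without, so 2 members then passed. The reference to the median of all miRNAs, the contrasts between single probes and the fat cell counts under each scaling were added after seeing the data, as a description. No paired analysis was possible because there is a single array of either condition, and no replicate could be left out for the same reason. Signal over background limits the 5p arms.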
